A study of Homo sapiens with 24 samples.

Results

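The genes described here were 9 chemokine genes, IL8, CXCL1, CXCL2, CXCL3, CXCL5 and CXCL6 of the CXC family and CCL2, CCL5 and CCL20 of the CC family, out of 48162 genes in the count table of a bulk RNA-seq study of PPC1 prostate cancer cells. They were picked by name, with the higher reads of several of them in polyploid giant cancer cells (PGCC) than in untreated parental cells already known, so that comparison chose them by measured values and is given below as a description with no test. The 24 libraries formed 4 groups of 6. UT were untreated parental cells, and UT_LCL were parental cells exposed to 5 µM LCL521 for 5 h. PGCC were cells irradiated with 8 Gy on day 2, harvested on day 5 and enriched with a 20 micron filter, and PGCC_LCL were PGCC exposed to the same LCL521 dose for the same time. LCL521 is an inhibitor of acid ceramidase, the lysosomal enzyme that cleaves ceramide. The labels name no vehicle control for it. All groups came from 1 cell line, and the parental cells were not filtered, so radiation and filtration cannot be told apart. Same-numbered libraries of the 4 groups are read here as 1 of 6 experiments, harvested in parallel per the labels.

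Chemokines are small secreted proteins that direct the migration of leukocytes through G protein-coupled receptors. The CXC members studied here carry an ELR motif, act on CXCR2 and, for IL8 and CXCL6, also on CXCR1, and draw neutrophils. CCL2 acts on CCR2 and draws monocytes, CCL5 acts on receptors that include CCR1 and CCR3 and draws T cells and monocytes, and CCL20 acts on CCR6. Their promoters are classical targets of NF-kappaB and AP-1, interleukin-1 is a strong inducer, and the short-lived messages are degraded through AU-rich elements. Senescent cells are known to secrete many of these proteins.

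The sequence upstream of the start site is shown for the 7 of 9 members that matched a promoter entry of RefSeq (build GRCh38.p14), because genes with nearly the same upstream sequence differed widely in reads. Each line gives the 100 bases before the start site on the gene's strand, with GGAATTTCC in capitals. IL8 lies at chr4:73740469-73740568 on the plus strand, CXCL2 at chr4:74099196-74099295 on the minus strand, CXCL3 at chr4:74038690-74038789 on the minus strand, CXCL1 at chr4:73869293-73869392 on the plus strand, CXCL6 at chr4:73836578-73836677 on the plus strand, CXCL5 at chr4:73998678-73998777 on the minus strand and CCL20 at chr2:227813742-227813841 on the plus strand.
IL8: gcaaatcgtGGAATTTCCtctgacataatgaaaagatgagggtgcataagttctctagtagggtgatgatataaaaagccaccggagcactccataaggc
CXCL2: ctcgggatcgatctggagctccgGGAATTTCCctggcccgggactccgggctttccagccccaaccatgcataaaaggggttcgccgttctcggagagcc
CXCL3: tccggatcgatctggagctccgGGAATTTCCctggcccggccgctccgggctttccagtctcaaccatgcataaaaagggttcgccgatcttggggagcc
CXCL1: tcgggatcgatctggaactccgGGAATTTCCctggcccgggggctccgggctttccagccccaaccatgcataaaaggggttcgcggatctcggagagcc
CXCL6: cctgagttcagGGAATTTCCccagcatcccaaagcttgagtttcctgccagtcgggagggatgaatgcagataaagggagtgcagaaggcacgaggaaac
CXCL5: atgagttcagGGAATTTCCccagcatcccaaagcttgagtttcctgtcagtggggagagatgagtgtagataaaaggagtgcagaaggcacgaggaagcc
CCL20: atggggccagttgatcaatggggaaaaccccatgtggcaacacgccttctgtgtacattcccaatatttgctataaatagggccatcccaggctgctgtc

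The 9-base string GGAATTTCC, searched on both strands, stood once in all 6 CXC windows, between 91 and 69 bases before the start site, and not in the CCL20 window. In the table as a whole, 0.185% of 35116 windows of the same 100 bases held it. The broader NF-kappaB consensus, which overlaps that string, was found in the windows of CCL20 and of the CXC genes other than IL8, and in 4.11% of all windows. The AP-1 string TGANTCA stood at 137 to 131 bases before the IL8 start site, outside the window printed, and in the upstream sequence of no other of the 7 genes; 7.71% of all promoters, taken from 250 bases before to 50 after the start, held it. Aligned over the window, CXCL1 and CXCL2 were 94.1% identical, CXCL1 and CXCL3 were 90.0% identical and CXCL5 and CXCL6 were 90.1% identical, whereas IL8 and CXCL2 were 43.2% identical. A match of letters is a description of the sequence and not a measurement of binding.

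Library totals ran from 14835246 to 19906601 counts. Levels are CPM, the counts of each library scaled to a common total, and 3 counts, the number that a count of 0 allows, corresponded to between 0.150 and 0.207 CPM. These floors and the counting intervals below cover counting error only. The first 2 principal components held 55.9% and 16.5% of the variance. All 8 libraries of replicates 4 and 5 stood apart from the other 16 on the second, at 13.3 or above against -4.11 or below, so the members are also given with these experiments shown separately. In bulk RNA, more cells that express a gene and more RNA of it per cell cannot be told apart.

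The label of these genes refers to senescence, and 9 textbook senescence genes did not move as one set. Of these, 6 were higher and 1 lower in PGCC_LCL than in UT_LCL, where 25.0% of all genes were called higher and 23.9% lower. CDKN1A, the p21 cell cycle inhibitor, had a log2 fold change of 3.89 (SE 0.36, edgeR adjusted p = 1.1e-06). MKI67, a proliferation marker that is usually lost in senescence, was higher by 2.22 (SE 0.33, edgeR adjusted p = 7.9e-05), HMGB2 by 1.37 (SE 0.32, edgeR adjusted p = 0.00257) and LMNB1, the lamin usually lost in senescence, by 0.69 (SE 0.24, edgeR adjusted p = 0.0280). CDKN2A, which encodes p16, fell by 0.95 (SE 0.13, edgeR adjusted p = 3.9e-05). The genes are therefore called by their family here and not by a senescence program. Keratins of simple epithelium were plentiful, at means of 70.2 CPM for KRT8, 233 CPM for KRT18 and 612 CPM for KRT19 in UT. Other epithelial markers were low, with EPCAM at 0.203 CPM and CDH1 at 3.07 CPM in UT. Of the 4 epithelial markers tested in PGCC_LCL against UT_LCL, 2 were higher and 2 lower, beside 25.0% and 23.9% of all genes. KRT8 rose by 1.51 (SE 0.14, edgeR adjusted p = 7.9e-07) and KRT19 by 0.38 (SE 0.13, edgeR adjusted p = 0.0284). KRT18 fell by 0.38 (SE 0.09, edgeR adjusted p = 0.00299) and CDH1 by 1.18 (SE 0.25, edgeR adjusted p = 0.00132). The prostate luminal genes KLK3 and TMPRSS2 had 0 and 10 counts over all 24 libraries.

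IL8, the main neutrophil chemoattractant, was by far the most abundant of the 9 genes in PGCC. By replicate number 1 to 6, UT held 7.18, 4.64, 7.70, 13.97, 7.74 and 9.68 CPM, and PGCC held 325, 453, 259, 77.4, 41.3 and 512 CPM. The groups did not overlap, and replicates 4 and 5 were the lowest of the PGCC libraries. With LCL521, UT_LCL held 6.23, 3.95, 6.00, 10.05, 3.25 and 6.32 CPM and PGCC_LCL held 232, 321, 215, 50.8, 30.4 and 474 CPM, again without overlap and with the same pair of experiments lowest among the giant cells. Of all 29659 genes with a count in UT_LCL or PGCC_LCL, 8.48% were higher in every PGCC_LCL library than in any UT_LCL library. The share for PGCC against UT is not reported here.

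CXCL2, a neutrophil chemoattractant of the GRO group, showed a smaller contrast. UT held 2.77, 2.72, 3.31, 15.2, 5.01 and 5.32 CPM and PGCC held 25.9, 38.7, 30.6, 12.4, 6.85 and 66.3 CPM. In replicate 4 the parental library was the higher of the pair. UT_LCL held 2.45, 2.53, 3.58, 15.4, 5.21 and 6.03 CPM and PGCC_LCL held 18.5, 29.7, 33.8, 12.3, 7.74 and 54.1 CPM, with the same inversion in replicate 4, so the groups overlapped in both comparisons.

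CXCL3, also of the GRO group, had 0.762, 0.985, 0.842, 2.73, 1.34 and 1.38 CPM in UT and 9.43, 10.17, 8.34, 4.71, 3.02 and 17.0 CPM in PGCC. With LCL521 it had 0.692, 0.884, 0.606, 2.27, 1.10 and 0.689 CPM in parental cells and 5.13, 8.19, 7.26, 3.84, 2.52 and 13.5 CPM in PGCC. The parental library of replicate 4 was the highest in both sets, and neither set overlapped with its PGCC counterpart. With LCL521, 8.48% of all genes with a count were likewise higher in every PGCC library than in any parental library.

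CCL20, the ligand of CCR6, had 1.36, 0.637, 0.661, 5.97, 0.815 and 0.691 CPM in UT and 28.2, 20.8, 12.6, 5.96, 2.22 and 26.8 CPM in PGCC. With LCL521 it had 1.20, 0.353, 0.606, 3.83, 0.735 and 0.689 CPM in parental cells and 15.1, 17.0, 6.77, 4.37, 1.86 and 20.4 CPM in PGCC. In replicate 4 the parental and PGCC libraries were level, and both groups of giant cells overlapped with the parental groups.

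**Figure D1:**
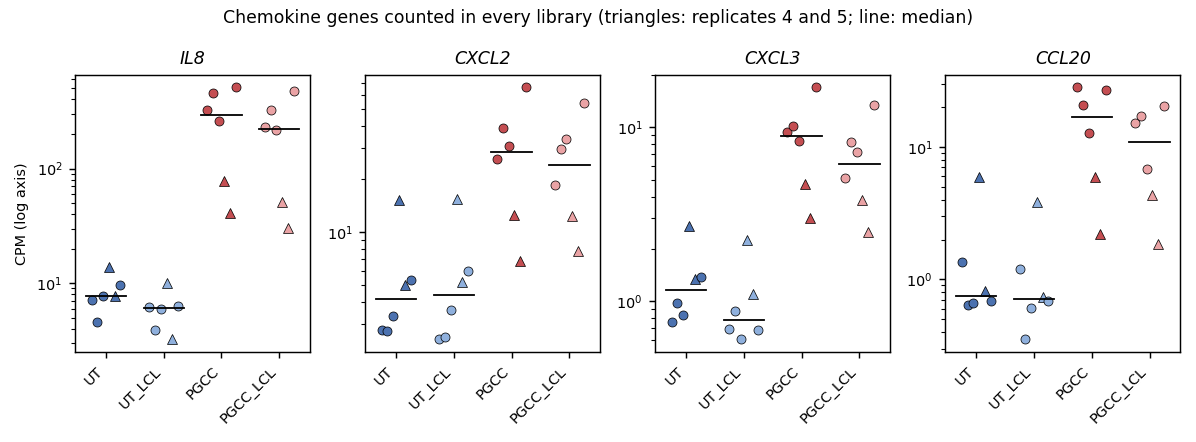
CPM on a log axis of the 4 members counted in every library, by group; each point is 1 library, triangles are replicates 4 and 5 and lines are group medians. In the giant cells the triangles lie lowest for all 4 genes, while for all 4 genes the triangle of replicate 4 is the highest parental point.

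PGCC against UT is the comparison behind the choice of these genes, and its log2 fold changes were 5.05 for IL8, 3.25 for CCL20, 2.72 for CXCL3 and 2.41 for CXCL2. Over all 13812 genes tested there, 23.1% were called higher. The other 5 members had too few counts to be tested. PGCC_LCL against UT_LCL used none of those libraries, and 25.0% of 13818 genes were called higher in it. Its values were also known when the genes were picked. The p-values below only set each difference against the spread between these libraries and are not independent evidence of the direction. Of the 9 members, 4 passed the filter on low counts and were called higher. CCL20 had 6 to 66 counts in UT_LCL and passed through its PGCC_LCL level, so being testable already favoured a higher call for it.

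IL8 was 37.5-fold higher in PGCC_LCL than in UT_LCL (log2 fold change 5.23, 95% interval 3.91 to 6.55, SE 0.62, edgeR adjusted p = 9.9e-06). CCL20 was 8.89-fold higher (log2 fold change 3.15, 95% interval 1.81 to 4.49, SE 0.63, edgeR adjusted p = 8.5e-04). CXCL3 was 6.54-fold higher (log2 fold change 2.71, 95% interval 1.80 to 3.62, SE 0.43, edgeR adjusted p = 1.2e-04), and CXCL2 was 4.48-fold higher (log2 fold change 2.16, 95% interval 1.06 to 3.27, SE 0.52, edgeR adjusted p = 0.00311). These 4 were also called when each experiment was fitted as a block, where 4070 of all 13818 genes tested were called higher. In exact permutation tests over all divisions of the libraries into groups of 6, IL8 and CXCL3 reached the smallest two-sided p this design allows (p = 0.00216), and the values for CCL20 and CXCL2 were p = 0.00433 and p = 0.00649. Over the 6 same-numbered pairs, where the smallest possible p is 0.0312, the exact p was 0.0312 for IL8, CXCL3 and CCL20, each higher in 6 of 6 pairs, and 0.0625 for CXCL2, higher in 5 of 6.

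The increase was much smaller in replicates 4 and 5 than in the other 4 experiments, for all 4 genes and with or without LCL521. This split was noticed in the data and was not tested. For IL8 the paired log2 differences between PGCC_LCL and UT_LCL averaged 5.71 over replicates 1, 2, 3 and 6, and 2.75 over 4 and 5. For CXCL2 the averages were 3.17 and 0.12, for CXCL3 they were 3.30 and 0.92, and for CCL20 they were 4.16 and 0.70. Between PGCC and UT the same means were 3.43 and 0.08 for CXCL2 and 4.54 and 0.66 for CCL20.

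Both sides of the contrast differed between these experiments. In PGCC, mean IL8 was 59.4 CPM in replicates 4 and 5 and 387 CPM in the others, and mean CCL20 was 4.09 and 22.1 CPM. In UT the means of these genes were the other way round, with CXCL2 at 10.10 CPM in replicates 4 and 5 against 3.53 CPM in the others and CCL20 at 3.39 against 0.838 CPM. In both cases this rested on replicate 4, since replicate 5 held 5.01 CPM of CXCL2 and 0.815 CPM of CCL20, within the range of the other 4 libraries. NFKBIA, the NF-kappaB inhibitor that is itself an NF-kappaB target, and CDKN1A were measured beside them. In PGCC, NFKBIA had means of 31.0 and 134 CPM in replicates 4 and 5 and in the others, and CDKN1A had means of 60.4 and 173 CPM. In UT they were also lower in replicates 4 and 5, at 28.6 and 48.4 CPM for NFKBIA and at 5.55 and 12.6 CPM for CDKN1A.

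**Figure D2:**
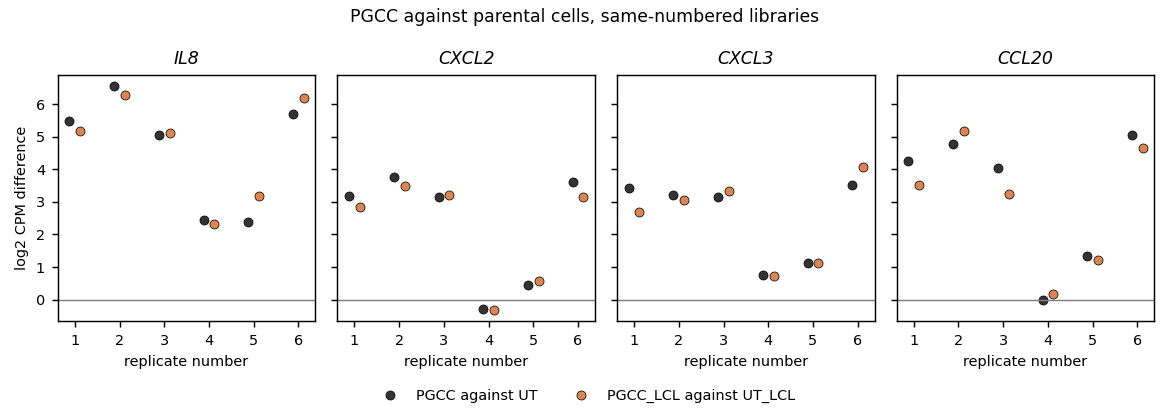
Log2 CPM difference (2 counts added) between PGCC and parental cells for each same-numbered pair of libraries, without LCL521 (dark) and with it (orange). In replicate 4, CXCL2 lies at -0.29 and -0.32 and CCL20 at 0.00 and 0.18, whereas IL8 lies above 2 in every pair.

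Levels of different genes were compared per kilobase of gene length, as CPM per kb. In PGCC the order was IL8 at 163 ± 113 CPM per kb, CXCL2 at 24.7 ± 17.4, CCL20 at 19.4 ± 13.1 and CXCL3 at 5.35 ± 2.99 (SD, n = 6). CXCL2 and CCL20, neighbours in that order, differed by less than their spread. In UT, IL8 at 4.98 ± 1.84 and CXCL2 at 4.70 ± 3.92 CPM per kb were within their spread of each other, followed by CCL20 at 2.03 ± 2.55 and CXCL3 at 0.816 ± 0.442. The per-kilobase ratio of IL8 to CXCL2 was 1.30 ± 0.42 in UT and 6.27 ± 1.97 in PGCC, with ranges of 0.657 to 1.85 and 4.31 to 8.97 that did not overlap. IL8 made up 52.8% ± 8.8 of the members' summed CPM in UT and 81.5% ± 3.8 in PGCC (SD, n = 6).

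The remaining 5 members stayed at 12 counts or fewer in every library. CCL5, a T cell and monocyte chemoattractant, had 0 counts in all 12 parental libraries, which allows up to 3 counts per group. In PGCC it had 4, 7, 1, 3, 1 and 6 counts and in PGCC_LCL 5, 4, 1, 3, 5 and 3 counts. It was therefore present in all 12 giant cell libraries. Taking 3 counts over UT_LCL as an assumed floor, the ratio of PGCC_LCL to UT_LCL was 6.68 for CCL5 (exact permutation p = 0.00216). With 0 counts in UT_LCL a lower outcome was not possible, so that p gives no evidence of direction. The 95% counting interval of the ratio, with 0 counts in UT_LCL, began at 4.97. Among all 29659 genes with a count in these 2 groups, 8.48% were higher in every PGCC_LCL library than in any UT_LCL library.

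CXCL1, the GRO gene that gave the group its name, was also at 0 in all 12 parental libraries. It had 4, 3, 6, 2, 2 and 5 counts in PGCC and 5, 2, 4, 0, 3 and 1 counts in PGCC_LCL. With the same floor of 3 counts, the ratio of PGCC_LCL to UT_LCL was 4.77 for CXCL1 (exact permutation p = 0.0152, and 0.0625 over pairs). With 0 counts in UT_LCL a lower outcome was not possible here either. For CXCL1 the 95% counting interval of the ratio began at 3.42. Its longest stretch of identical transcript sequence with CXCL2 was 77 bases and with CXCL3 55 bases. Some reads may therefore not tell these genes apart, and the few CXCL1 counts are uncertain. CXCL1 counts were 0.539% of the CXCL2 and CXCL3 counts in PGCC, 22 beside 4084, and 0 beside 713 in UT.

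CXCL6, also called GCP-2, had 8, 1, 3, 0, 0 and 9 counts in PGCC and 7, 12, 4, 2, 0 and 7 counts in PGCC_LCL, against 2 and 1 in all of UT and UT_LCL. The ratio of PGCC_LCL to UT_LCL was 30.6 with a counting interval of 5.10 to 1244 (exact permutation p = 0.0152, and 0.0625 over pairs, with 5 of 6 higher). With 1 count over UT_LCL a lower outcome was hardly possible. CCL2, the monocyte chemoattractant, had 11 counts over the PGCC libraries and 7 over PGCC_LCL, and 1 count in each parental group (exact permutation p = 0.182). CXCL5 had between 2 and 7 counts per group of 6 libraries (exact permutation p = 0.545). For CCL2 and CXCL5 a difference was not detectable at this depth.

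**Figure D3:**
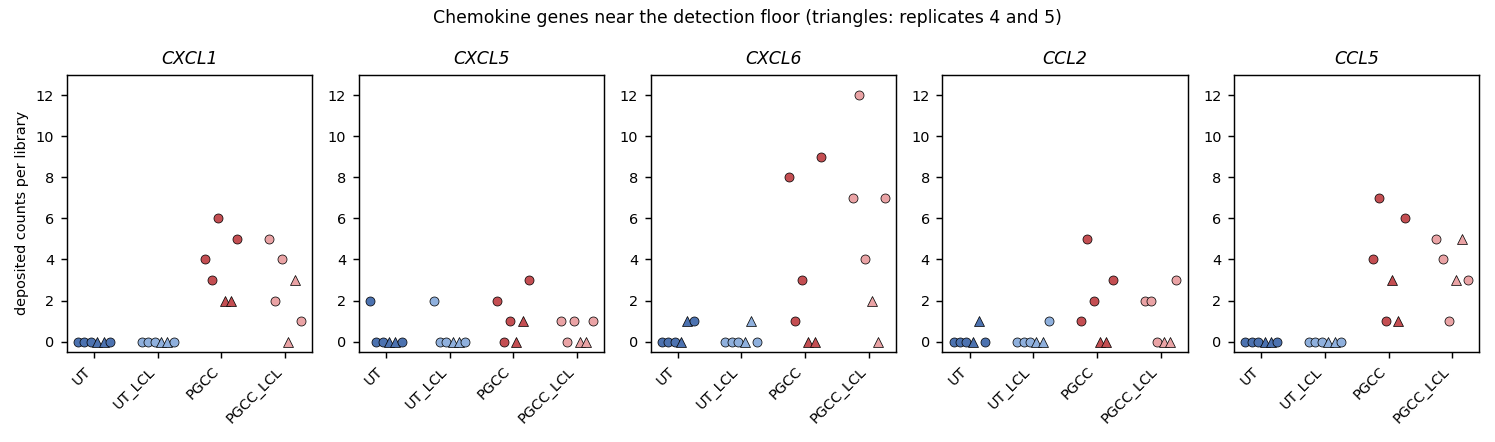
Deposited counts of the 5 members near the detection floor, by group; each point is 1 library and triangles are replicates 4 and 5. CCL5 and CXCL1 are at 0 in all 12 parental libraries, and no point lies above 12 counts.

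Immune cells make several of these chemokines, and 10 immune markers were measured beside them. Their summed level was 0.648 to 2.73 CPM in UT_LCL and 3.66 to 5.38 CPM in PGCC_LCL, and the ranges did not overlap. PTPRC, the pan-leukocyte marker, ranged from 0.353 to 2.21 CPM in UT_LCL and from 1.77 to 3.34 CPM in PGCC_LCL, and CSF1R from 0.0607 to 0.465 and from 0.708 to 0.785 CPM. These 2 were the only listed genes that passed the filter on low counts, and levels this low in UT_LCL passed it largely through PGCC_LCL. CD3D and MS4A1 were at 0 in all 24 libraries, and CD3E had 1 count. LYZ and ITGAM, myeloid genes, were at 0 in parental libraries and at 12 and 13 counts or fewer in any giant cell library. The part of these markers in the results for CCL5, CXCL1, CXCL6 and CCL2 was not tested.

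All 6 CXC members lie in 1 stretch of chromosome 4, from the IL8 start at 74606223 to the CXCL2 end at 74965010 (hg19), which is 359 kb long and holds 15 genes of the table. The reads stood at its ends. IL8 (74606223 to 74609433) had 23238 counts in PGCC_LCL, and CXCL3 (74902306 to 74904524) and CXCL2 (74962752 to 74965010) had 707 and 2735. Between them, CXCL6 had 32, CXCL1 15 and CXCL5 3 counts, and the platelet chemokine genes PF4, PF4V1 and PPBP had 0. CCL2 and CCL5 lie on chromosome 17 and CCL20 on chromosome 2.

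**Figure D4:**
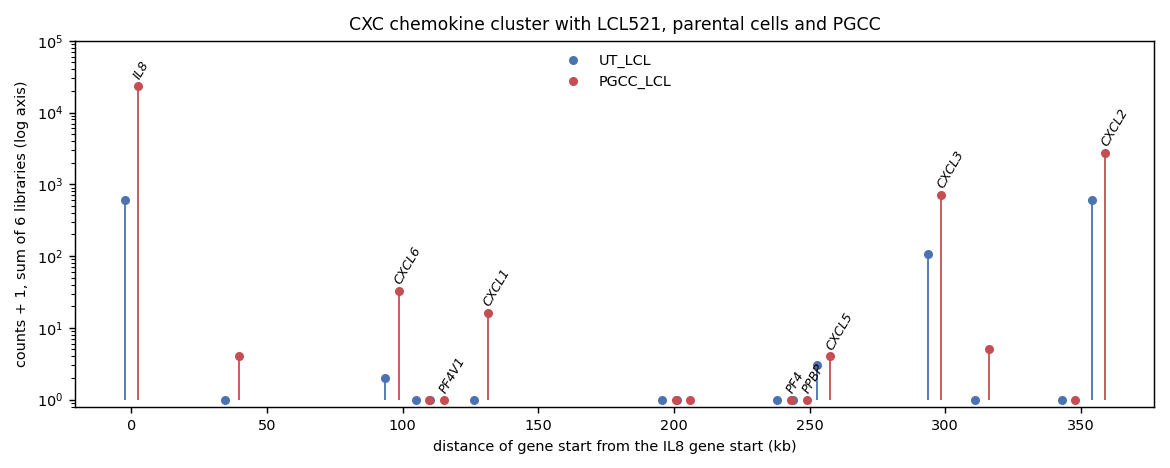
Counts plus 1, summed over 6 libraries and on a log axis, of the 15 genes in the CXC cluster against the distance of their start from the IL8 start, in UT_LCL (blue) and PGCC_LCL (red). IL8, CXCL3 and CXCL2 stand near the edges, and no gene between IL8 and CXCL3 exceeds 32 counts.

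The values of 3 of the 4 abundant genes were slightly lower with LCL521 within experiments, and members were called only in fits with experiments as a block. Without the replicate block, edgeR called 0 members in UT_LCL against UT, where 0% of 13277 genes were called and 71 had an unadjusted p under 0.05, and 0 members in PGCC_LCL against PGCC, where 0.00707% of 14151 genes were called, that is 1 gene, and 218 had an unadjusted p under 0.05. DESeq2 without the block also called 0 members in both. Once each experiment was fitted as a block, 3 members were called lower in PGCC_LCL than in PGCC, beside 0.572% of all genes. The same PGCC libraries took part in the comparison that chose the genes for high PGCC levels, so the choice itself favours lower calls here. CCL20 fell by 0.57 on the log2 scale (SE 0.09, edgeR adjusted p = 6.8e-04), IL8 by 0.39 (SE 0.05, edgeR adjusted p = 2.2e-05) and CXCL3 by 0.39 (SE 0.10, edgeR adjusted p = 0.0430). CXCL2 had a value of -0.18 (SE 0.07, edgeR adjusted p = 0.239). DESeq2 with the same block called IL8 alone.

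In parental cells the blocked fit called 0 members lower, beside 0.346% of all genes. The log2 fold changes of UT_LCL against UT were -0.50 for IL8 (SE 0.12, edgeR adjusted p = 0.0645), -0.39 for CCL20, -0.36 for CXCL3 and 0.04 for CXCL2. DESeq2 with the block called IL8 here as well. By pair, IL8, CXCL3 and CCL20 were lower with LCL521 in 6 of 6 experiments in parental cells and in 6 of 6 in PGCC, although the CCL20 levels of parental replicate 6 were nearly equal at 0.691 and 0.689 CPM. Each of these 6 exact paired tests, added after the data were seen, gave p = 0.0312, the smallest possible with 6 pairs. CXCL2 was lower in 2 of 6 parental pairs and in 4 of 6 PGCC pairs.

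Whether LCL521 acted differently in the 2 populations was tested by an interaction term, in which 0% of 14555 genes were called, 60 had an unadjusted p under 0.05 and 0 members were called. The interaction was 0.17 for IL8 (95% interval -1.46 to 1.80), -0.25 for CXCL2 (-1.85 to 1.35), -0.02 for CXCL3 (-1.42 to 1.37) and -0.10 for CCL20 (-2.15 to 1.94) on the log2 scale. That fit ignores the pairing. With each same-numbered pair as a block, a fit added after the data were seen, 0 genes were called, 561 had an unadjusted p under 0.05, and the interaction was 0.11 for IL8 (-0.14 to 0.37), -0.21 for CXCL2 (-0.48 to 0.06), -0.02 for CXCL3 (-0.50 to 0.46) and -0.14 for CCL20 (-0.59 to 0.31). The comparisons of LCL521 share their UT and PGCC libraries with the comparison that chose the genes.

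**Figure D5:**
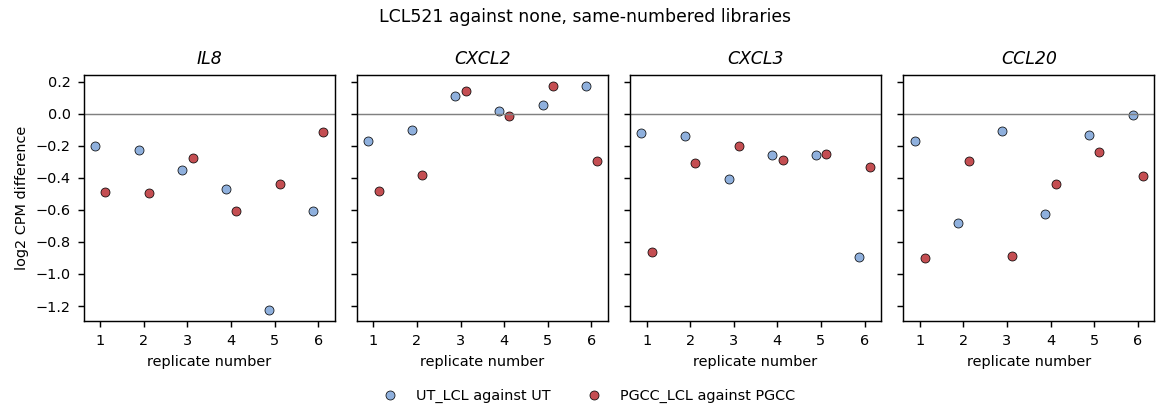
Log2 CPM difference (2 counts added) between cells with and without LCL521 for each same-numbered pair, in parental cells (blue) and PGCC (red). IL8, CXCL3 and CCL20 lie below 0 in all 12 pairs, and CXCL2 lies on both sides of 0.

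Of 39 further ligand genes, 20 had 0 counts in all 24 libraries and 34 stayed under 10 counts in each. In PGCC_LCL against UT_LCL, 3 could be tested, of which 1 was higher and 1 lower, against 25.0% called higher and 23.9% called lower among all genes. CCL26, the eotaxin that acts on CCR3, ranged from 0.412 to 1.29 CPM in UT_LCL and from 6.61 to 8.16 CPM in PGCC_LCL (log2 fold change 3.23, SE 0.22, edgeR adjusted p = 6.1e-08). Its mean in PGCC was 7.43 CPM in replicates 4 and 5 and 8.21 CPM in the others. CCL28, the most abundant of these ligands, had a mean of 13.1 CPM in UT and a log2 fold change of -0.19 (SE 0.15, edgeR adjusted p = 0.325). CXCL16, a membrane-bound ligand of CXCR6, fell by 0.63 (SE 0.14, edgeR adjusted p = 0.00221).

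Receptors of these chemokines had almost no reads. Over all 24 libraries, CXCR1 had 4 counts, CXCR2 5, CCR2 3, CCR6 13 and CCR3 1, and CCR1 had 0. Of 23 receptor genes, 18 stayed under 10 counts in each library and 3 were testable, of which 0 were called by edgeR without the block; CXCR4, the CXCL12 receptor, had a log2 fold change of 0.48 (SE 0.20, edgeR adjusted p = 0.0615) and was called with the block (edgeR adjusted p = 0.00721).

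Of 22 inducers and transcription factors of these genes, 18 were testable in PGCC_LCL against UT_LCL, with 9 higher and 2 lower, beside 25.0% and 23.9% of all genes. With the block 10 were higher, beside 4070 of all 13818 genes tested. The addition was REL, an NF-kappaB subunit (log2 fold change 0.51, edgeR adjusted p = 0.0744 without and 0.00552 with the block). IL1B, an inducer of IL8, had mean levels of 5.01 ± 1.81 CPM in UT_LCL and 106 ± 29 CPM in PGCC_LCL (SD, n = 6), a log2 fold change of 4.42 (SE 0.25, edgeR adjusted p = 1.2e-08). The interleukin-1 receptor gene IL1R1, of the same list, had 16 counts over all libraries, at most 3 in any, and could not be tested. FOS, a subunit of AP-1, was higher by 1.56 (SE 0.37, edgeR adjusted p = 0.00328), RELB, an NF-kappaB subunit, by 1.23 (SE 0.24, edgeR adjusted p = 7.0e-04) and NFKBIA by 1.21 (SE 0.34, edgeR adjusted p = 0.00827). RELA, the NF-kappaB subunit also known as p65, had a value of 0.00 (SE 0.07, edgeR adjusted p = 0.978), and MYD88 and TNFRSF1A were the 2 called lower. With the block, 2 of the 19 testable in PGCC_LCL against PGCC were lower, beside 0.572% of all genes, IL1B by 0.27 (edgeR adjusted p = 9.7e-04) and NFKBIA by 0.27 (edgeR adjusted p = 0.00115).

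Of 8 factors that control AU-rich messages, 0 were called higher and 1 lower in PGCC_LCL against UT_LCL, beside 25.0% and 23.9% of all genes. The factor called lower was HNRNPD, which encodes the AU-rich element binding protein AUF1 (log2 fold change -0.34, SE 0.08, edgeR adjusted p = 0.00232). ZFP36, which encodes the decay factor tristetraprolin, had a value of 0.37 (SE 0.21, edgeR adjusted p = 0.167).

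The 4 abundant members varied together. Over 24 libraries, which share groups and experiments, the pairwise Pearson r of their log2 CPM ran from 0.917 to 0.965, and over deviations from the group means from 0.835 to 0.947. Outside the members, the genes most like their mean profile were SEMA3C (r = 0.967), IL6 (0.960), NFKB2 (0.958), C8orf46 (0.956), RND3 (0.955), NRBF2 (0.952), HBEGF (0.947) and GFPT2 (0.946). IL6, a cytokine, was itself low, at a mean of 0.0587 CPM in UT and 0.987 CPM in PGCC. Over the deviations from group means, which leave out the difference between PGCC and parental cells, they were GOPC (r = 0.938), AMMECR1L (0.929), JUNB (0.922), TNFAIP6 (0.913) and BMP2 (0.908). By Spearman's rho, IL6 ranked 2nd and GFPT2 112th in the first of these orders.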

How the data were processed

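RNA-seq libraries of PPC1 cells were made by the authors from RNA extracted with an RNeasy kit. Per the submitters' processing notes, CASAVA, STAR, HTSeq and DESeq2 were used with build hg19; strand setting was not given in the sources used here. The deposited values are raw counts per gene, read here as counts, and the table's gene lengths were used for CPM per kb. The 9 members and all gene lists were chosen with earlier results of these data known. Genes passing filterByExpr (minimum count 10, total 15) were fitted with edgeR 4.0.16 in R 4.3.3, with TMM scaling, the quasi-likelihood test and Benjamini-Hochberg adjusted p under 0.05, using the groups of each comparison only. Exact tests used log2 CPM with a prior count of 2. The scripts were tested on simulated data.

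Same-numbered libraries were read as 1 experiment, harvested in parallel per the labels, and they deviated together. Median correlations were 0.344 in PGCC against UT, 0.272 in PGCC_LCL against UT_LCL, 0.652 in UT_LCL against UT and 0.532 in PGCC_LCL against PGCC. The lowest of all was 0.171. In the same order, 5, 3, 6 and 6 of the 6 libraries of the reference group (UT, UT_LCL, UT and PGCC) correlated best with their own number. The pairing was therefore least clear in PGCC_LCL against UT_LCL. Blocked values are given where they change the call of a member or of a gene named. Chi-square per degree of freedom between libraries of a group was 4.69 or more over 60 pairs, so none was a repeat. Alternatives were DESeq2 1.42.0, limma-voom 3.58.1, RLE scaling, library totals, filters of 1 count in any or 10 counts in every library, all 24 libraries in a single fit, the replicate block, and leaving out each replicate or replicates 4 and 5. Named genes were the members, up to 4 called genes per list with the largest change and a mean of at least 1 CPM in PGCC_LCL and UT_LCL, and the genes most like the members (8 over all libraries, 5 over deviations). CSF1R, LMNB1, CDKN2A, RELA, MYD88, TNFRSF1A, ZFP36, CXCR4 and the other list genes outside that rule were named after their values were seen. Depth was 14835246 to 19906601 counts. Some listed genes are not reported here.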

Additional observations from a re-analysis of the deposited data

Results flagged for a closer look

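CCL20 in UT replicate 4 stood far from the other 5 libraries of its group, at 5.97 CPM against 0.637 to 1.36 CPM. Its gap to the nearest library was 0.678 of the group's range on the log2 scale, above the 95% critical value of Dixon's test for 6 samples. This was 1 of 16 groups of libraries examined, for the 4 abundant members in 4 conditions, and chance flags about 1 in 20. The same-numbered UT_LCL library was also the highest of its group, at 3.83 CPM.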

How the results depend on the processing

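Members called in PGCC_LCL against UT_LCL numbered 4, and the 67 fold changes that could be recomputed for these genes kept their direction and call. With at least 1 count in any library as the filter, 7 members were called. Those added were CXCL1, CCL5 and CXCL6, with 0, 0 and 1 counts over UT_LCL, so a lower call was hardly possible for them. The share of all genes called under that filter is not reported here. With at least 10 counts in every library 3 members were called, since CCL20 had 6 counts in 1 UT_LCL library and was not tested. Against 0 in the unblocked fits, the replicate block called 3 members in PGCC_LCL against PGCC, 2 without replicates 4 and 5 (IL8 and CCL20, an alternative added after the data were seen), and 1 in DESeq2; in UT_LCL against UT the block in DESeq2 called 1. The block changed no other call of a member, and the fit with each pair as a block called 0 members in the interaction. The interaction of CXCL3, near 0 and not called, turned to 0.014 in limma-voom, 0.036 without replicates 4 and 5 and 0.040 in the blocked fit without them, and ran from -0.146 to 0.097 leaving out each replicate; that of CCL20 ran from -0.334 to 0.060. The cause was not tested. Depth limits CXCL5 and CCL2, which had at most 11 counts in any group.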
